A study of Mus musculus with 8 samples.

Results

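The 121 probes described here were chosen by their lower signal in Dicer knockout footpad skin at E17.5, a late embryonic day named by days after mating. They come from the 42006 non-control probes of an Agilent 2-colour microarray. On each array footpad RNA was labelled with Cy3 and a universal mouse reference RNA with Cy5, with no dye swap, and M is the log2 ratio of footpad to reference signal. A probe entered when its mean M was at least 1 lower in knockout (KO) than in wild type (WT) at E17.5 and both KO arrays lay below both WT arrays. It also had to be well above background in Cy3 on both WT E17.5 arrays and in Cy5 on all 8 arrays, with no spot marked non-uniform. Of 25559 probes that met the detection and quality conditions, 126 were that much lower, and in 5 of these KO and WT arrays overlapped. By the mirrored rule 59 probes were higher in KO.

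The study compared C57BL6 embryos labelled Dicer cKO with embryos labelled wild type, at E16.5 and at E17.5. There were 2 arrays in every one of the 4 groups, labelled as biological replicates, with the footpads of 3 to 5 embryos pooled for each. The Cre driver, and so the cells that lost Dicer, is not given in the sources used here. Dicer cuts precursor RNAs into mature microRNAs, which repress matching messenger RNAs by shortening their life or blocking their translation. Mouse footpad skin is hairless, and its sweat glands arise as epidermal buds that grow down into the dermis late in gestation, when the epidermis above them is also maturing into a barrier.

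The probes are given by identifier and sequence, because the files pair them with no gene. The targeted gene, the marker genes of footpad cell types and the gene lists of the sweat gland and epidermis therefore could not be checked, and no member is assigned a function. The skin was measured in bulk, so fewer cells of a type and less RNA per cell cannot be told apart. The share of probes well above background in Cy3 was 62.0% and 65.1% on the KO E17.5 arrays and 66.5% to 72.0% on the other 6. The KO E17.5 arrays were thus the lowest of the 8 in this respect. In Cy5, the reference channel, KO E17.5 replicate 1 was also the lowest, at 71.1%. The other arrays had 77.3% to 79.8%, with KO E17.5 replicate 2 at 78.1%. The part of these low shares in the results below was not tested. Pearson's r of M between the 2 arrays of a group was 0.984 to 0.990. The arrays of a stage shared 1 slide, so KO and WT were compared within a slide, whereas stage and slide cannot be told apart.

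The sequences that the results turn on are printed as deposited, 5′ to 3′, whole or as a stretch of 30 bases. The first 2 probes had the largest differences between genotypes at E17.5, and the third had one of the 2 smallest p at E16.5:
Z00008117-1: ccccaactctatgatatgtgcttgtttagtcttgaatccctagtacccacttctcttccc
Z00022648-1: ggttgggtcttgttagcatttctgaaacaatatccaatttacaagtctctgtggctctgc
Z00038833-1: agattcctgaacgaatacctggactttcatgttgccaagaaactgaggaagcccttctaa
The next 2 were not well above background in KO at either stage and were called at E16.5, and of the second only bases 16 to 45 are shown:
Z00074008-1: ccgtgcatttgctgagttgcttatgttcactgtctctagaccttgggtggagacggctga
Z00022485-1: ctgtgaaagttatcttctgtggaacataag
A further 2 carry a difference at E17.5 with little or none at E16.5. Bases 24 to 53 of the first are shown, with the letters AATAAA in capitals:
Z00056014-1: gtctttctcatcAATAAAaacatcgttgtg
Z00075696-1: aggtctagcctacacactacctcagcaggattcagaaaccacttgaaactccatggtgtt

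At E17.5, 62 of the 121 members were well above background in Cy3 on both KO arrays, 8 on 1 and 51 on neither. Only the first 62 have a KO level measured on both arrays, and for the 51 only a bound can be given. The differences in mean M (KO minus WT) ran from -4.85 to -1.005 with a median of -1.25, values at background in KO included. A difference of 2 or more, 4-fold, was measured in 4 of the 62, and 1 of the 51 had a bound of at least 4-fold. These values chose the members and carry no test. In the fit over all probes, 5.03% of 29020 probes were called lower in KO at E17.5, and 85 of the 121 members were among them. That count was 26 to 68 when 1 array was left out (26 and 35 without WT E17.5 replicate 1 or 2, 51 when KO E17.5 replicate 1 was dropped and 53 without either WT E16.5 array). It was 44 without the filter on dim probes, 15 with normexp background correction fitted on all spots and 0 with the E17.5 arrays alone. Just inside the limit were Z00025668-1 at -1.005, Z00058398-1 at -1.006 and Z00060398-1 at -1.026. Just outside were Z00036031-1 at -0.998, and Z00057277-1 and Z00050501-1, both at -0.996. The values on both sides of the limit thus ran on without a gap.

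A pair of probes stood apart from the others in size. Z00008117-1 had an M of 0.30 and -0.61 in the KO E17.5 arrays and of 4.61 and 4.77 in the WT E17.5 arrays. KO was 28.8-fold lower, and the nearest arrays of the 2 genotypes were 4.32 apart on the log2 scale. Z00022648-1 had an M of 0.44 and -0.48 in KO and of 4.37 and 4.35 in WT, a 20.7-fold difference. For both, the KO replicates spread far more than the WT replicates, with an SD of 0.64 against 0.11 for Z00008117-1 and of 0.65 against 0.01 for Z00022648-1 (n = 2 each). The Cy5 reference signal of these 2 was also lower on the KO arrays, by 0.74 and 0.95 on the log2 scale, so the differences in Cy3 alone were larger, at -5.60 and -5.34. With normexp fitted without the marked spots the differences in M were smaller, at -3.98 and -3.75, and with normexp on all spots they were -3.94 and -3.72.

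The other 8 of the 10 largest measured differences lay between -2.06 and -1.68. Z00060369-1 read 0.96 and 0.42 in KO and 2.58 and 2.91 in WT. Z00036214-1, which shares 29 bases with it, read 1.18 and 0.77 in KO and 2.95 and 3.05 in WT. Over the shared stretch, shown in capitals, they report the same sequence, and their differences of -2.06 and -2.02 are 1 observation:
Z00060369-1: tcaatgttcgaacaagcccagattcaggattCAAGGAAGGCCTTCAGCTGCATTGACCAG
Z00036214-1: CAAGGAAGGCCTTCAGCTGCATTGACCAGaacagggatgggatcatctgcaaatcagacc
Z00056014-1 read -1.79 and -1.68 in KO and 0.00 and 0.39 in WT, and Z00030658-1 read -0.28 and -0.26 in KO and 1.61 and 1.55 in WT. Z00029796-1 read -0.91 and -1.02 in KO against 0.59 and 1.00 in WT. In each of these the genotypes were separated by several times the gap between replicates. Z00024719-1 had the highest M of all members, 6.40 and 6.78 in WT against 5.36 and 4.41 in KO, so its KO signal still exceeded the reference. Z00022511-1 was also high in WT, at 4.55 and 4.73, against 3.65 and 3.53 in KO. Z00074994-1 read -1.77 and -2.13 in KO and -0.06 and -0.39 in WT. Z00075696-1 was far below the reference throughout, at -4.02 and -4.27 in KO and -2.37 and -2.56 in WT. With normexp fitted without the marked spots 3 of these differences fell short of the limit, at -0.88 for Z00029796-1, -0.83 for Z00074994-1 and -0.81 for Z00075696-1. With normexp on all spots these 3 were at -0.75, -0.43 and 0.01, while Z00024719-1 was at -2.86.

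Over the 62 measured members the median SD between the KO arrays was 0.136 and between the WT arrays 0.0759. In Cy3 alone their median difference was -1.33 and in Cy5 it was -0.034 (range -0.953 to 0.225), so most of the difference lay in the footpad channel. In 37 of the 62 the lowest WT array was at least 1 above the highest KO array. The rule asked for separate arrays and a mean difference of at least 1, so this count describes chosen probes and carries no test. In none of the 62 did the KO arrays differ by over 1.

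The 51 members at background in KO were less settled. Their median SD between KO arrays was 0.564, and in 19 of them the 2 KO arrays differed by over 1. A bound was set by taking the KO level as the higher of its own signal and the lowest signal well above background on that array, on processed signals made comparable between arrays with limma's Aquantile method. No dyes were swapped, so a dye bias in it was not tested. The bound was above 1-fold in 42 of the 51 and at least 2-fold in 11. Z00022485-1 was at least 11.8-fold lower, with an M of -1.18 and -1.55 in KO and of 2.39 and 2.40 in WT. Z00074008-1 was at least 3.43-fold lower, with -5.47 and -5.61 in KO and -1.69 and -1.47 in WT. Z00055262-1 was at least 3.76-fold lower and Z00024962-1 at least 3.52-fold. Z00045567-1 was at least 3.41-fold lower, but its KO arrays read 0.92 and -1.12, one near the WT values of 1.83 and 2.37. At the other end Z00072804-1 gave a bound of at least 1.18-fold, and Z00030234-1 gave none above 1.

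Some members share bases with other probes read on the same arrays, and their values are set side by side as a description. Z00022747-1, Z00076845-1 and Z00074548-1 share 56 to 59 bases and so report 1 sequence. Bases 31 to 60 of each are shown, with the part common to all of them in capitals:
Z00022747-1: TCTTCCTGCAATAAACACGTGGATCCtgcc
Z00076845-1: TCTTCCTGCAATAAACACGTGGATCCtgca
Z00074548-1: CTTGTCTTCCTGCAATAAACACGTGGATCC
Their WT E17.5 arrays read -1.54 and -1.43, -1.32 and -1.65, and -1.37 and -1.47 in that order, hence nearly the same value. Their KO E17.5 arrays read -3.97 and -3.43, -4.19 and -3.15, and -2.96 and -2.48. The first 2 were not well above background in KO and the third on 1 array, and their differences of -2.22, -2.18 and -1.30 thus varied although they share at least 56 of 60 bases.

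A further 10 members share 20 or more bases with probes outside the set, 9 of them on the same strand. There were 12 pairs on the same strand, and in 5 of them the other probe met the detection and quality conditions. In 4 of those 5 the other probe was also lower in KO at E17.5, by 0.53 to 0.93 on the log2 scale. The share of all probes lower by as much was not computed. The other probes were read on the arrays that chose the members, so this count is a description. Z00054719-1 fell short of the limit at -0.93 beside Z00024156-1 at -1.06. Z00074393-1 stood at -0.81 beside Z00060351-1 at -1.05, and Z00076913-1 at -0.77 beside Z00038741-1 at -1.16. Z00074307-1 stood at -0.53 beside Z00023560-1 at -1.14. In the fifth, Z00076012-1 was at -0.15 beside Z00041967-1 at -1.19, with 27 shared bases. Z00045260-1 at -1.53 and Z00077546-1 at -1.34 share 57 and 47 bases with Z00073927-1 and Z00070632-1, which were not well above background on any E17.5 array and differed by -0.26 and -0.07. Z00061844-1 has a partner, Z00031556-1, that carries 45 of its bases on the opposite strand. Z00061844-1 read -1.54 and -1.78 in KO and -0.46 and -0.36 in WT at E17.5, whereas Z00031556-1 read 0.58 and 0.53 in KO and 0.52 and 0.54 in WT. The KO and WT arrays were thus apart for the first and overlapped for its opposite-strand partner.

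The E16.5 arrays took no part in choosing the members by their M and give a view of the set one day earlier. The limma p at E16.5 also used the spread of the E17.5 arrays, on which the rule acted. The counts of members by limma p are therefore not independent of the rule. Most members were lower in KO at E16.5 as well. Their median difference was -0.54 (range -4.04 to 0.696), against 0.00401 over the 25559 probes that met the conditions, and 102 of the 121 were lower on average. Both KO E16.5 arrays lay below both WT E16.5 arrays in 76 of 121 members, and 27.0% of the 25559 probes did so. Both lay above in 4 members, against 28.0% of those probes. These values include signals at background. In Cy3, 83 of the 121 members were well above background on both KO E16.5 arrays, 18 on 1 and 20 on neither. On the WT E16.5 arrays the counts were 95, 21 and 5. Among the 59 members well above background in Cy3 on all 8 arrays the median difference was -0.686. In 49 of these 59 both KO E16.5 arrays lay below both WT E16.5 arrays. With limma's moderated test and Benjamini-Hochberg adjustment over 29015 probes, 19 of the 121 members were called lower in KO (adjusted p under 0.05), where 0.255% of all probes tested and 0.270% of the 25559 probes were. By limma none was called higher, against 0.0793% of all probes. At an unadjusted p under 0.05 there were 61 members lower and 0 higher, against 9.36% and 8.75% of all probes tested.

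The 19 calls rest on few arrays. There were none when the filter on dim probes was dropped, when the E16.5 arrays were fitted alone, with normexp fitted on all spots or when any E16.5 or WT E17.5 array was left out, and 3 without either KO E17.5 array. With normexp fitted without the marked spots, 36 members were called lower at E16.5, all 19 among them. That setting called 855 probes in either direction, against 97 in the main fit, and the median difference of the members shrank to -0.17. Both normexp settings add an offset of 50 to the signals, which draws the log ratios of dim probes toward 0.

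The 2 smallest p at E16.5 belonged to probes outside the 10 largest measured differences at E17.5. Z00049277-1 read 0.56 and 0.50 in the KO E16.5 arrays and 1.48 and 1.51 in the WT E16.5 arrays. The difference was -0.96 ± 0.05 with a limma adjusted p of 0.0278. Here and below, ± gives limma's SE (n = 2 each), from a spread shared by the groups of both stages. It is not the SE of the E16.5 replicates alone. A day later Z00049277-1 read 0.61 and 0.64 in KO and 2.20 and 2.27 in WT. Z00038833-1 read -0.70 and -0.70 in KO and 0.52 and 0.61 in WT at E16.5, a difference of -1.26 ± 0.07 with a limma adjusted p of 0.0278. At E17.5 it read 0.03 and -0.12 against 1.08 and 0.98, a difference of -1.08.

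Z00008117-1 and Z00022648-1 again had the largest differences among the members measured on all arrays. Z00008117-1 read -0.93 and -1.35 in KO and 2.67 and 3.12 in WT at E16.5, a difference of -4.04 ± 0.33 or 16.4-fold (limma adjusted p 0.0348). Z00022648-1 read -1.11 and -1.02 against 1.70 and 1.86, a difference of -2.85 ± 0.28 or 7.19-fold (limma adjusted p 0.0375). With normexp fitted without the marked spots these 2 differences were -2.37 and -1.33. Z00030658-1 read -0.69 and -0.52 against 0.23 and 0.31 (-0.88 ± 0.07, limma adjusted p 0.0348). Z00023850-1 read 0.39 and 0.39 against 1.28 and 1.49, and Z00054291-1 read 2.59 and 2.53 against 3.41 and 3.62, both with a limma adjusted p of 0.0352.

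Of the 19 members called, 17 were well above background in Cy3 on all 8 arrays. The remaining 2 were Z00074008-1 and Z00022485-1, which were not well above background in KO at either stage. At E16.5 Z00074008-1 was at least 2.77-fold lower (limma adjusted p 0.0413) and Z00022485-1 at least 2.10-fold (limma adjusted p 0.0469). The differences of the 19 ran from -4.04 to -0.571 with a median of -0.997.

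Several of the largest differences at E17.5 had no call at E16.5. The overlapping probes Z00060369-1 and Z00036214-1 differed by -1.20 and -1.07 at E16.5, with limma adjusted p of 0.138 and 0.109, and their KO replicates were 0.84 and 0.12, and 0.69 and 0.34. Z00074994-1 differed by -1.94 at E16.5, more than at E17.5, with a limma adjusted p of 0.0581. Z00024719-1 differed by -0.97 (limma adjusted p 0.258), and its KO arrays read 4.72 and 4.08 against 5.20 and 5.54. Z00056014-1 read -2.33 and -2.22 in KO and -2.19 and -2.09 in WT, a difference of -0.13 (limma adjusted p 0.641). Z00075696-1 read -5.15 and -4.78 in KO and -5.23 and -4.96 in WT, a difference of 0.13 (limma adjusted p 0.736).

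Among the 59 members well above background on all 8 arrays, the E16.5 difference was -1 or lower in 13, between -1 and -0.5 in 26, between -0.5 and 0 in 15 and above 0 in 5. Across these 59 probes, which share their arrays and are not independent, Pearson's r between the differences at the 2 stages was 0.725. Without Z00008117-1 and Z00022648-1 it was 0.201 over 57 probes. The rule kept only E17.5 differences of -1 or lower, which limits the range on that side. Neither value therefore tests a relation between the stages. Over all 121 members 22 were at least 1 lower at E16.5 too, where 0.196% of the 25559 probes were, and 7 had a larger deficit at E16.5 than at E17.5.

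The contrast of the 2 stages (KO minus WT at E17.5 less the same at E16.5) was fitted over 28929 probes. By limma it called 0 probes (0%) at an adjusted p under 0.05 and 3330 (11.5%) at an unadjusted p under 0.05, which include 64 of the 121 members. The rule fixes the E17.5 side of this contrast, so the members' values are a description. With normexp fitted without the marked spots 89 probes were called, 23 of them members.

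Over the members the median M was -0.347 in WT E16.5, 0.299 in WT E17.5, -0.942 in KO E16.5 and -1.06 in KO E17.5, while the medians of the 25559 probes lay between -0.103 and -0.0822. From E16.5 to E17.5 the WT value was higher in 110 of the 121 members, against 46.6% of the 25559 probes, and the median change was 0.764. Over the 25559 probes the median WT change was -0.0175. In KO the value was higher in 57 members and the median change was -0.0345, near the -0.0172 of the 25559 probes. The WT value was higher by 1 or more in 46 members (1.27% of the 25559 probes) and the KO value in 14 (1.10%), all 14 of them among the 46. In 98 members the KO E17.5 mean lay below the WT E16.5 mean, and in the other 23 it lay between the WT means of both days. For the counts of 57, 98 and 23 no share over the 25559 probes was computed. These changes share the E17.5 arrays with the rule and have no test.

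The stage patterns differed between members. In Z00056014-1 the WT mean went from -2.14 to 0.20 while the KO mean went from -2.27 to -1.74. In Z00075696-1 the changes were 2.63 in WT and 0.82 in KO. Among the 59 members measured on all arrays, 31 were higher by 1 or more in WT at E17.5, and of these 12 differed by under 0.5 in KO and 10 were higher by 1 or more there too. Z00055102-1, chosen after its values were seen, is of the first kind. It read 1.30 and 0.85 in KO and 1.08 and 1.19 in WT at E16.5, then 1.26 and 0.90 in KO and 2.76 and 2.34 in WT at E17.5. Z00023052-1, also chosen after its values were seen, is of the second kind and was higher at E17.5 by 2.20 in KO and 1.84 in WT, with KO below WT on both days.

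The largest stage differences in WT were upward. Z00037703-1 was not well above background on any E16.5 array and reached an M of 2.41 and 3.44 in WT and 1.94 and 1.53 in KO at E17.5. Z00066973-1 went from -2.64 and -2.60 to 1.05 and 1.19 in WT and from -4.09 and -4.86 to 0.05 and -0.27 in KO, where only 1 of the KO E16.5 arrays was well above background. Z00022485-1 went from -0.55 and -0.37 to 2.39 and 2.40 in WT, and Z00024962-1 reached 1.79 and 2.12 from below background, while both stayed at background in KO. In 11 members the WT value was lower at E17.5. The 4 largest such changes were -0.58 (Z00072804-1), -0.48 (Z00045567-1), -0.46 (Z00074994-1) and -0.45 (Z00030234-1). At Z00074994-1 the KO deficit was thus present at both stages, with KO E16.5 at -2.04 and -1.38 against 0.21 and 0.25 in WT.

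Most members were weak probes. Their median log2 processed Cy3 signal in WT E17.5 was 7.52 against 10 for the 25559 probes, and the median Cy5 signal was 6.99 against 9.98. Of the members 42.1% were not well above background on either KO E17.5 array, against 2.34% of the 25559 probes, and the rule asked for detection in WT only. None was saturated. The members' median GC content was 45%, the same as for the 25559 probes. The letters AATAAA, the core of the common polyadenylation signal, were in 15 members (12.4%), against 7.66% of the 25559 probes, and on the opposite strand (TTTATT) in 2 (1.65%), against 3.12%. Such a match is a description of the probe and not of a site in use. By rows the members were spread over the array, with 19.8% to 29.8% in each of 4 equal bands.

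A single member could be placed on the genome. Bases 1 to 52 of Z00055262-1 matched 1 of 32851 RefSeq promoter windows (short stretches around gene starts) exactly, at chr13:112356004-112356055 on the plus strand of GRCm38.p6. The window belongs to Gm41065, a long non-coding RNA gene, and lies within the interval of Ankrd55 (112288451 to 112384005). Whether the match falls in an exon of Ankrd55 could not be read from the table, and other places in the genome were not searched:
Z00055262-1: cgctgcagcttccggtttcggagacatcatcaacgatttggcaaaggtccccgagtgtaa
This probe read -2.94 and -2.85 in KO and -0.49 and -0.80 in WT at E17.5, and -2.73 and -2.55 against -2.26 and -2.16 at E16.5 (difference -0.43, limma adjusted p 0.171). None of the members matched any of the 1005 mouse microRNA hairpins searched.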

How the data were processed

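Footpad RNA (Cy3) and reference RNA (Cy5) were measured on 8 arrays with 42006 non-control probes of 60 bases. Per the file headers, Agilent Feature Extraction (version 9.5.1.1) made the authors' deposited processed intensities, after its own background subtraction and dye normalization. The deposited series matrix of the authors holds log10 values. Apart from a constant for each probe they matched the log10 of processed Cy3 over Cy5 to within 0.000193. The series matrix therefore shares the direction of M, and its fit gave the same counts of calls. Its column medians were 2.23 to 2.24.

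M was the log2 ratio of the deposited processed intensities. Control and non-uniform spots were left out and spots of a probe averaged. Probes detected in Cy3 (marked well above background) on both arrays of 1 or more groups were fitted with 1 mean per group in limma 3.58.1 (R 4.3.3). The 4 groups shared 1 estimate of the spread of each probe, and p-values were adjusted by Benjamini and Hochberg over all probes tested. The fit was also run on simulated data with the same spread in every group and no choice of members. That run therefore did not test the calls among probes chosen by their E17.5 values. The number of arrays limits the precision. Replicate numbers were not treated as pairs in the main fit. The deviations of KO and WT arrays with the same number correlated at -0.095 (E16.5) and -0.049 (E17.5), which does not show how the samples were collected.

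The members and lists were chosen with earlier results of these data known. Named members were the 10 largest measured E17.5 differences, the 6 largest among those at background in KO, the 6 smallest p at E16.5, the 4 largest WT stage changes each way, the 4 highest in WT E17.5, the 3 on each side of the limit, and overlapping probes. Dicer1, the gene lists and the cell type markers needed gene names and were not analysed here. Alternatives covered background correction, scaling, Cy3 alone, the dim-probe filter, the prior, array weights, the arrays fitted and the rule's limit. For normexp, raw mean signals were corrected with the median local background and an offset of 50, then normalized within arrays by loess. The offset shrinks the log ratios of dim probes, and its part in the smaller differences was not tested.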

Additional observations from a re-analysis of the deposited data

Results flagged for a closer look

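In 4 members both KO arrays lay above both WT arrays at E16.5, although both lay below at E17.5. The E16.5 differences (KO minus WT, log2 scale) were 0.35 for Z00000469-1, 0.10 for Z00004595-1, 0.47 for Z00037703-1 and 0.31 for Z00023644-1. None of the 4 was called at E16.5 (limma adjusted p 0.623, 0.705, 0.561 and 0.478), and the rule fixed their direction at E17.5, so the difference between stages was not tested. Z00004595-1 and Z00023644-1 were well above background on all 8 arrays. Z00037703-1 was at background on every E16.5 array, and Z00000469-1 on 1 array of each genotype at E16.5 and on both KO E17.5 arrays.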

How the results depend on the processing

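The 97 probes called at E16.5 in KO against WT, 19 of them members, became 855 and 36 with normexp without marked spots, 294 and 30 with Cy3 alone, and 512 and 30 with both dyes required on all arrays. Array weights gave 174 probes and median centring 57. There were 0 of either with normexp on all spots, without the dim-probe filter or with the E16.5 arrays alone. With the replicate block there were likewise 0 calls at either stage. Leaving out 1 array gave 0 to 5 probes and 0 to 3 members. The 2633 probes called at E17.5 became 4295 (normexp without marked spots), 36 (normexp on all spots), 433 (no filter), 3988 (both dyes) and 0 (E17.5 arrays alone), and 130 to 1329 without 1 array. The contrast of the stages, 0 probes, gave 89 with normexp without marked spots (23 members), 1 with median centring, 1 with Cy3 alone and 0 to 2 without 1 array. The rule's 121 members became 238 with a limit of 0.8, 33 with 1.5 and 62 when KO detection was asked too. On normexp values it gave 42 probes, 34 of them among the 121 and 1 of those among the 51 at background in KO. The members' median E16.5 difference of -0.54 was -0.17 and -0.16 with the 2 normexp fits and -0.69 over the 59 members with both dyes on all arrays. It stayed between -0.61 and -0.46 without 1 array. Z00075696-1 changed sign at E16.5 from 0.13 to -0.06 without KO E16.5 replicate 2 and to -0.01 without WT E16.5 replicate 1, within a range of -0.06 to 0.31 without 1 array, and at E17.5 to 0.01 with normexp on all spots. The causes were not tested, and signal near background limits the 51 dim members.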
